A study of Mus musculus with 346 samples.

Results

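The cells described here are 25 Afp-low cells from a plate of mouse liver cells taken at embryonic day 10.5, set against 46 hepatoblasts from the same plate. They were chosen by 2 genes: a level below 5 for Afp, a serum protein gene that marks the hepatocyte lineage before birth, and a level below 5 for Actc1, the actin of heart muscle. Hepatoblasts, the embryonic precursors of hepatocytes and bile duct cells, are the cells with an Afp level of at least 10. The plate holds 78 of the 346 cells of the series. Besides the 25 and the 46 it holds 6 cells with Actc1, called Actc1 cells below, and 1 cell that met none of these rules. Levels are given as log2(normalized reads + 1). Detection of a gene means that the cell had at least 5 normalized reads of it.

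All of these cells share 1 genotype, stage and plate. The embryos carried a Prox1-EGFP transgene, which drives green fluorescent protein from the regulatory region of Prox1, a homeobox transcription factor gene. Dissected liver buds were dissociated and cells with green fluorescence were sorted, 1 to a well, so every cell passed the same gate. The libraries were made with the Nextera XT kit. The labels name no animal, so the Afp-low cells count as 1 sample and the hepatoblasts as 1 sample. No test between the groups was run, and each SD describes the spread between cells. The 25 cells came from 11 columns and 7 rows of the plate and the hepatoblasts from 12 columns and 8 rows.

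The rule left a wide gap between the groups. The highest Afp level among the 25 cells was 1.91, and 5 of them had any Afp read, while the lowest among the hepatoblasts was 11.6, the next 12.8 and the highest 15.8. Actc1 had no read in any of the 25 cells, ran between 9.68 and 13.7 in the 6 Actc1 cells, and reached 0.596 at most in the hepatoblasts. The cell that met no rule had Afp at 6.57, Actc1 at 0 and Prox1 at 6.99. These values chose the cells and are given as a description.

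The liver bud grows out of the foregut as hepatoblasts leave the endodermal epithelium and enter the septum transversum, a sheet of mesoderm between the heart and the gut. The mesoderm gives the bud its mesothelium, its stellate cells and other connective tissue, and signals to the hepatoblasts through secreted growth factors. Endothelial cells lie between both from an early stage. Prox1 is needed for hepatoblasts to migrate into the septum transversum, and is also known from lymphatic endothelium and heart muscle.

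The median depth was 2360460 reads in the Afp-low cells (633115 to 3017886) and 2657340.5 in the hepatoblasts (1416104 to 3431728). The median number of genes detected was 2354 (1565 to 3324) in the Afp-low cells and 3102.5 (2179 to 4873) in the hepatoblasts. After each cell was thinned to 500000 reads, the median number of genes with any read was 2645 in the Afp-low cells and 3329 in the hepatoblasts, against 3029 in the Afp-low cells and 3898.5 in the hepatoblasts before. The share of mitochondrial reads had a median of 3.03% in the Afp-low cells (0.984 to 6.66%) and 3.15% in the hepatoblasts (1.52 to 5.27%). The lower number of genes in the Afp-low cells moves with the many genes that were lower there, and its part in those differences was not tested.

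Promoters of 4 genes are shown because these genes differ most between the Afp-low cells and the hepatoblasts. They are Map1b and Ptn, the 2 with the largest higher level in the Afp-low cells, and Afp and Fgb, the 2 with the largest lower level. Each promoter is the 250 bases before the RefSeq start of the gene on GRCm38.p6, on the strand of the gene, with motif matches in capitals.
Map1b: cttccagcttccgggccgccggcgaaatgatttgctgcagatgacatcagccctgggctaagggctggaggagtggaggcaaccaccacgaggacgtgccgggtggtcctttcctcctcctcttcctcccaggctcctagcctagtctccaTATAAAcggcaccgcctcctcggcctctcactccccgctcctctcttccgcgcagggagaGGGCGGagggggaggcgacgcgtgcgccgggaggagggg
Ptn: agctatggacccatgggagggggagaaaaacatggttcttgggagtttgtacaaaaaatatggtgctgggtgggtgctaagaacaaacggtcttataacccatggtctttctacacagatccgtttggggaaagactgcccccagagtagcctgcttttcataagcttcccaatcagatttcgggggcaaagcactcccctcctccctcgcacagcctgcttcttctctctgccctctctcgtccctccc
Afp: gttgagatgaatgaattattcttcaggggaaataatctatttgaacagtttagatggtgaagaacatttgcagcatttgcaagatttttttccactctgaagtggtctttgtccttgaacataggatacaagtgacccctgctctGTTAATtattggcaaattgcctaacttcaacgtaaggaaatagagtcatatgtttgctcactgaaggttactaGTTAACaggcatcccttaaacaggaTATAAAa
Fgb: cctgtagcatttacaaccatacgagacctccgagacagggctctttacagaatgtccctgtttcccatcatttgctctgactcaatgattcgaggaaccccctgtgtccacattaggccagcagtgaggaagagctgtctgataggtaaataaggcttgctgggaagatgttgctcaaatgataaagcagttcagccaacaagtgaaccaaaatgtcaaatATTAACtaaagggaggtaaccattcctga
They lie at chr13:99516603-99516852 on the minus strand (Map1b), chr6:36810180-36810429 on the minus strand (Ptn), chr5:90490464-90490713 on the plus strand (Afp) and chr3:83049864-83050113 on the minus strand (Fgb). Both strands were searched for GTTAAT and GTTAAC, half-sites of the hepatic factor HNF1, for TATAAA, the TATA box, and for GGGCGG, the GC box, and no 2 of the matches overlap. The Afp promoter holds GTTAAC 32 bases and TATAAA 7 bases before the RefSeq start and GTTAAT once further upstream. The Fgb promoter holds GTTAAT on the opposite strand 29 bases before its RefSeq start, written there as its reverse complement. Among 27025 mouse promoters of this length, GTTAAT is found in 6.52%, GTTAAC in 2.61%, TATAAA in 12.97% and GGGCGG in 32.9%. The Map1b promoter holds TATAAA 99 bases and GGGCGG 39 bases before the start, and the Ptn promoter holds none of these letters. G and C make up 66.4% of the Map1b promoter, 52% of the Ptn promoter, 36% of the Afp promoter and 44.8% of the Fgb promoter, against a median of 52% over all promoters. CpG pairs number 19 in Map1b, 5 in Ptn, 1 in Afp and 3 in Fgb. All distances are from the RefSeq start, and GENCODE places some starts elsewhere. There Afp starts at 90490737, and the minus-strand genes Ptn and Map1b start at 36810220 and 99516540. Distances for these 3 genes would thus differ, and the Ptn stretch reaches into the GENCODE gene. A match describes the letters only and says nothing of a factor being bound.

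Most of the 25 Afp-low cells carried genes of mesenchyme, and 4 of them carried genes of endothelium or leukocytes instead. A cell is said to carry a list where at least 3 of its markers were detected. General mesenchyme markers were carried by 19 of 25 Afp-low cells (76%, 95% interval 54.9 to 90.6%, Clopper-Pearson, counting error alone) and by 0 of 46 hepatoblasts, which allows a share of up to 6.52%. Of the other 6 cells, 4 carried markers of endothelium or of leukocytes. Once these 4 are set aside, each of the remaining 21 cells carried at least 1 of the lists for general mesenchyme, septum transversum, mesothelium and hepatic stellate cells. These 21 are called mesenchymal cells below, and the label is weakest for 2 of them. The cell in well E6 had 5 cardiac markers beside 3 septum transversum and 2 general mesenchyme markers, and the cell in well E3 had 5 stellate markers and 1 general mesenchyme marker.

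**Figure D1:**
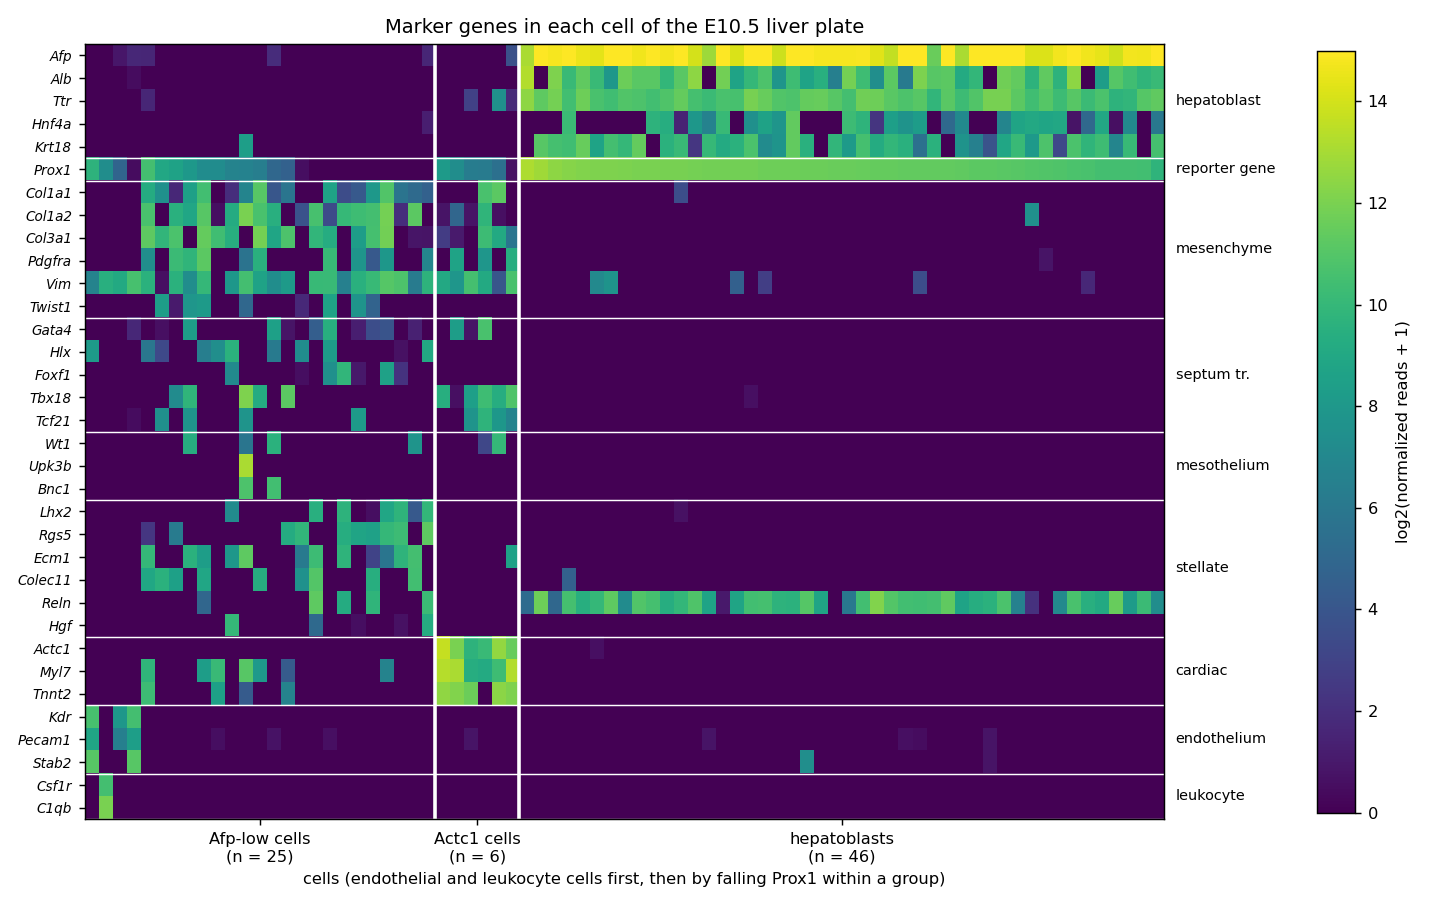
Level of marker genes (rows, log2(normalized reads + 1) by colour) in each cell of the liver plate (columns), with the 25 Afp-low cells left, the 6 Actc1 cells in the middle and the 46 hepatoblasts right. The first 4 columns are the Afp-low cells with endothelial or leukocyte markers; the other cells of each group run by falling Prox1, and mesenchymal genes fill the left block in patches while Afp and Ttr fill the right one.

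General mesenchyme markers ran from genes found in most Afp-low cells to genes found in few. Col1a2, the gene of a type I collagen chain, was detected in 16 of 25 Afp-low cells and 1 of 46 hepatoblasts, with a lowest, median and highest level of 0, 9.21 and 11.999 in the Afp-low cells. Col1a1, the partner chain, was also detected in 16 Afp-low cells and 1 hepatoblast, and Col3a1, type III collagen, in 14 and 0. Vim, the intermediate filament of mesenchymal cells, was found in 22 of 25 Afp-low cells, which included the 4 with endothelial or leukocyte markers, and in 5 of 46 hepatoblasts. Pdgfra, a growth factor receptor of fibroblasts, was found in 11 Afp-low cells and 0 hepatoblasts, and the basic helix-loop-helix gene Twist1 in 7 and 0. Other markers of connective tissue were rare in the Afp-low cells: Dcn, Lum and Pdgfrb were each found in 2 of 25 cells, Postn in 3 and Prrx1 in 0.

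Septum transversum genes were carried by 13 of 25 Afp-low cells (52%, 31.3 to 72.2%) and 0 of 46 hepatoblasts. Gata6, a zinc finger factor, was found in 12 Afp-low cells and 14 hepatoblasts. Alcam, an adhesion gene on the same list, was found in 8 Afp-low cells and also in hepatoblasts, at up to 9.89 (well H5). Hlx, a homeobox gene of the mesenchyme around the liver bud, was found in 10 Afp-low cells and 0 hepatoblasts, Gata4 in 6 and 0, the T-box gene Tbx18 in 5 and 0, and Foxf1, Tbx20 and Tcf21, further mesodermal transcription factors, in 4 and 0 each. These genes were sparse, and their levels spread widely. Among the cells that had them, Hlx ran from 3.30 to 9.56 with a median of 7.36, Gata4 from 3.54 to 9.43 with a median of 6.42, and Tbx18 from 7.21 to 12.1 with a median of 9.83.

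Hepatic stellate genes were carried by 15 of 25 Afp-low cells (60%, 38.7 to 78.9%), and also by 8 of 46 hepatoblasts (17.4%, 7.82 to 31.4%). Reln, the gene of the matrix protein reelin, was detected in 5 of 25 Afp-low cells and in 42 of 46 hepatoblasts, so this member of the list was more widespread in the hepatoblasts. Among its other members Bambi, a pseudoreceptor of the TGF-beta pathway, was found in 15 Afp-low cells and 13 hepatoblasts, Ecm1, a matrix protein gene, in 12 and 0, the collectin gene Colec11 in 9 and 1, Rgs5, known from pericytes, in 9 and 0, and Lhx2, a transcription factor of stellate cells, in 7 and 0. The cytoskeletal gene Des and the hepatocyte growth factor gene Hgf were found in 3 Afp-low cells and 0 hepatoblasts each, and Ngfr in 4 and 0. In the 7 cells with Lhx2 it ran from 4.22 to 9.93 with a median of 9.44.

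Mesothelial genes were carried by 3 of 25 Afp-low cells (12%, 2.55 to 31.2%) and 0 of 46 hepatoblasts. The cell in well B9 had 7 of these markers, among them Upk3b at 13.1 and Upk1b at 12.3, which encode uroplakins of the mesothelial surface, Lrrn4 at 11.5, Podxl at 11.1, Bnc1 at 10.8 and the Wilms tumour gene Wt1 at 5.85. It was the only Afp-low cell with Upk3b. The other 2 cells had Wt1 at 9.56 (well E1, with Bnc1 at 10.5) and at 9.34 (well B2, with Krt19 at 9.16). Lists were seldom carried alone: 2 of the 21 cells carried exactly 1 of the 4 mesenchymal lists, 10 carried 2, 8 carried 3 and 1 carried all 4. General mesenchyme and stellate genes were carried together by 14 cells, and general mesenchyme and septum transversum genes by 12. The lists overlap by construction: the septum transversum and stellate lists share 2 genes, Lhx2 among them, and Pdgfrb is on both the general mesenchyme and the stellate list.

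**Figure D2:**
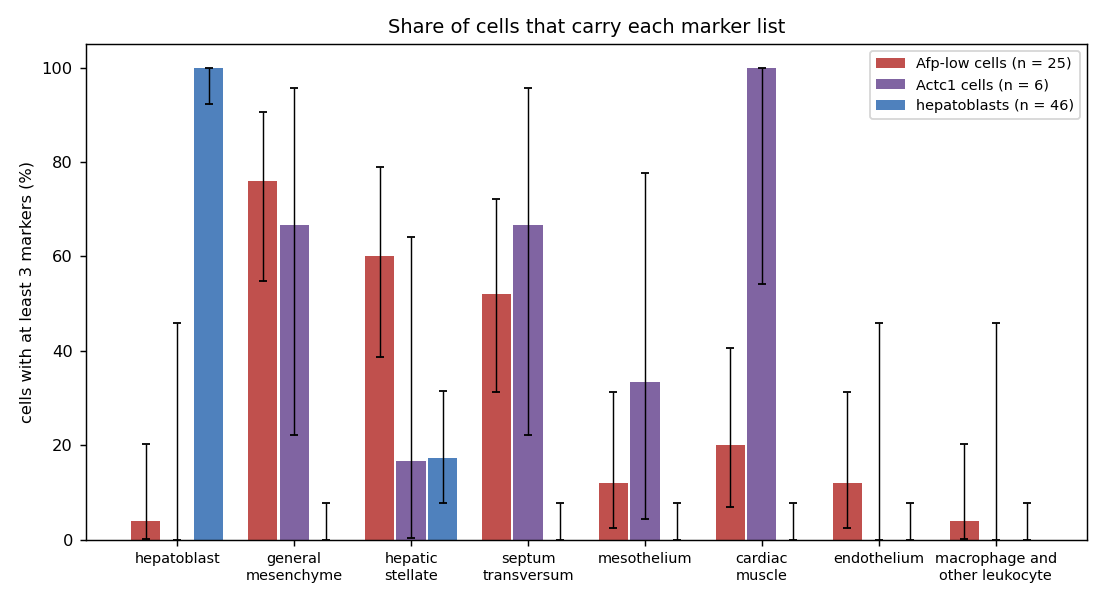
Share of cells (%) with at least 3 detected markers of each list in the 25 Afp-low cells, the 6 Actc1 cells and the 46 hepatoblasts; error bars are Clopper-Pearson 95% intervals. General mesenchyme (76%), stellate (60%) and septum transversum (52%) lists lead in the Afp-low cells, and the hepatoblast list is carried by 100% of hepatoblasts and 4% of Afp-low cells.

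The 4 cells with endothelial or leukocyte markers were of 2 kinds. The 3 cells in wells A3, F3 and D9 had Kdr, the VEGF receptor of endothelium, at 7.93, 10.5 and 10.6, Pecam1, an adhesion gene of endothelium, at 6.46, 8.43 and 8.79, and Flt4, a receptor of lymphatic and early endothelium, at 8.41, 9.08 and 7.73. The scavenger receptor gene Stab2, a marker of liver sinusoids, was at 11.1 in F3 and D9. The cell in well A4 had 9 of the leukocyte markers, among them the complement gene C1qb at 12.01, the lysozyme gene Lyz2 at 11.9, the macrophage growth factor receptor gene Csf1r at 10.5 and Ptprc, the pan-leukocyte phosphatase, at 9.23. None of these 4 cells had a read of Col1a1, Col1a2 or Col3a1. No Afp-low cell carried the erythroid, neuronal, neural crest or epithelial lists, 0 of 25 allowing a share of up to 12%, while 27 of 46 hepatoblasts carried the epithelial list (58.7%, 43.2 to 73.0025%).

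Prox1 (chromosome 1, 190118035 to 190170714, GRCm38) was lower and more uneven in the Afp-low cells. It was detected in 14 of 25 Afp-low cells (56%, 34.9 to 75.6%) and in 46 of 46 hepatoblasts (lower bound 92.3%). The lowest, median and highest levels were 0, 4.84 and 10.5 in the Afp-low cells, and 9.76, 11.6 and 13.2 in the hepatoblasts. 1 Afp-low cell reached the lowest hepatoblast, so the groups overlapped in that cell alone. That cell, in well F1, had 695 Prox1 reads and the lowest depth of the Afp-low cells, 633115 reads. No Prox1 read at all was found in 9 Afp-low cells. The means were 4.13 ± 3.88 (SD over cells, n = 25) in the Afp-low cells and 11.52 ± 0.64 (n = 46) in the hepatoblasts, a difference of -7.39. Among cells that had it, the Afp-low cells averaged 7.30 ± 1.77 (n = 14), and the difference from hepatoblasts was -4.22.

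After thinning to 500000 reads Prox1 was again in 56% of the Afp-low cells and 100% of the hepatoblasts. The median number of Prox1 reads was 46 in the Afp-low cells and 4903 in the hepatoblasts. The 4 endothelial and leukocyte cells had Prox1 in 3 cases, at 4.84 and 9.72 in the endothelial cells of wells A3 and D9 and at 7.36 in the leukocyte cell. Without these 4 cells Prox1 was detected in 11 of 21 cells (52.4%, 29.8 to 74.3%) at a mean of 3.85 ± 3.90. The 6 Actc1 cells had Prox1 at 0.676, 5.55, 6.21, 6.30, 7.37 and 8.16, within the range of the Afp-low cells and below every hepatoblast.

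**Figure D3:**
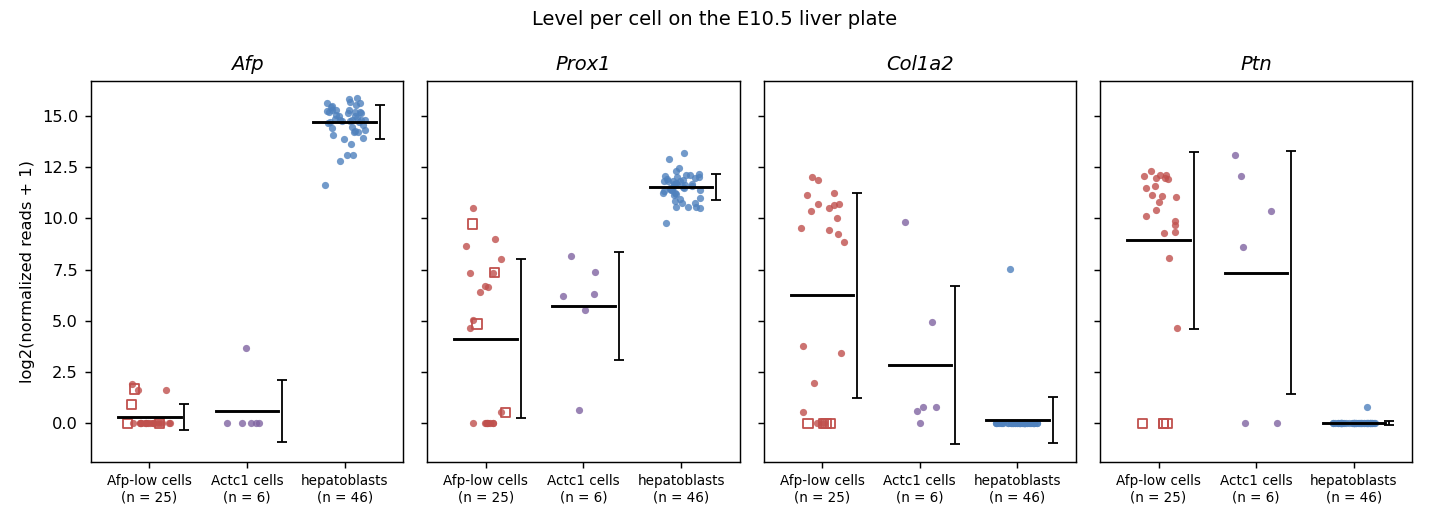
Level per cell (log2(normalized reads + 1)) of Afp, which chose the groups, Prox1, Col1a2 and Ptn in the 25 Afp-low cells, the 6 Actc1 cells and the 46 hepatoblasts; lines are means, bars are SD over cells, and open squares are the 4 Afp-low cells with endothelial or leukocyte markers. Prox1 spreads from 0 to 10.5 in the Afp-low cells and from 9.76 to 13.2 in the hepatoblasts.

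Several genes were found mostly in the mesenchymal cells with Prox1 detected, and others mostly in those where it was not detected. These genes were picked after their values were seen, so the counts are a description of 21 cells, 11 of them with Prox1. A cell without Prox1 here is one below detection, which may be a missed transcript. Over the 21 cells, Prox1 level and the number of genes detected had a Spearman correlation of 0.32. The part of missed detection in the split was not tested. All 5 cells with Tbx18 and all 5 cells with Fgf10, a ligand made by mesenchyme beside gut buds, had Prox1, and 3 cells had both genes. Igf1, the insulin-like growth factor gene, was found in 6 cells with Prox1 and 1 without. The muscle genes Myl7 and Tnnt2, a myosin light chain and a troponin of the heart, were found in 6 and 4 cells with Prox1 and in 1 and 0 without; the cell in well E6 is among those with both and Prox1. On the other side, Lhx2 was found in 1 cell with Prox1 and 6 without, Rgs5 in 2 and 7, and Reln in 1 and 4. Alcam, an adhesion gene of the septum transversum and mesothelium, was found in 2 and 6. Alcam and Reln were also detected in hepatoblasts. Lhx2 shared no cell with Tbx18 or Fgf10. Col1a1 and Col1a2 were each found in 8 cells with Prox1 and 8 without, and Col3a1 in 9 with and 5 without.

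By list, mesothelial markers were carried by 3 of the 11 cells with Prox1 and 0 of the 10 without, and cardiac markers by 5 and 0. The stellate list was carried by 6 cells with Prox1 and 9 without, the general mesenchyme list by 10 and 9, and the septum transversum list by 7 and 6. At least 3 genes of G2 and M phase were detected in 2 of the 11 cells with Prox1 and 7 of the 10 without.

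**Figure D4:**
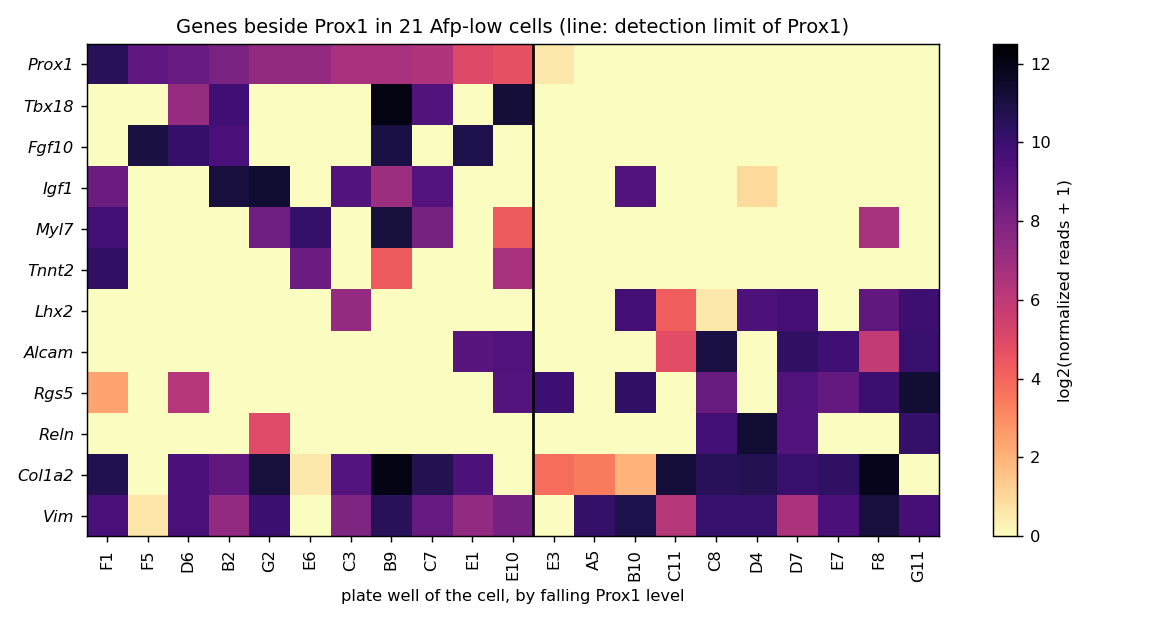
Level (log2(normalized reads + 1) by colour) of 12 genes in the 21 mesenchymal Afp-low cells, ordered by falling Prox1 from left to right; the vertical line divides the 11 cells with Prox1 detected from the 10 without. Tbx18 and Fgf10 lie left of the line in 5 cells each, and Lhx2 lies mostly right of it (6 of 7 cells).

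The difference over all genes was large and went mostly in 1 direction. A gene was compared where 10% or more of the cells in a group had it, which held for 8509 genes, and a difference of at least 2 between mean levels was counted. By this measure 1688 genes differed in either direction (19.8%): 246 genes were higher (2.89% of those compared) and 1442 were lower in the Afp-low cells (16.9%), while the median over all compared genes was -0.65. That median was -0.51 when levels were scaled to each cell's total reads. In 1083 genes at least 50% of the cells of both groups had the gene. In 11 genes every Afp-low cell lay below every hepatoblast (0.129%), and in 0 genes every Afp-low cell lay above (0%). The 11 were Afp, which chose the groups, Fgb, Apoa2, Rbp4, Ambp, Apom, Itih2, Fgg, Serpina1b, Ttr and Trf.

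**Figure D5:**
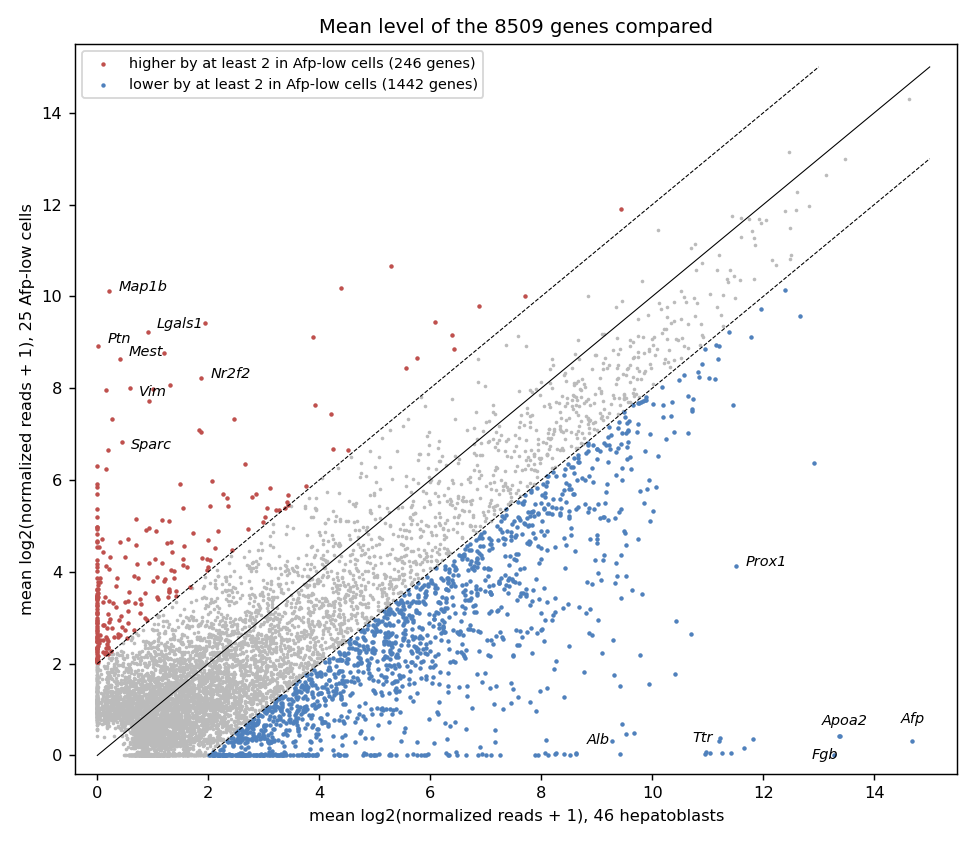
Mean level of the 8509 compared genes in the 46 hepatoblasts (x axis) and the 25 Afp-low cells (y axis), both log2(normalized reads + 1); the solid line marks equal levels and the dashed lines a difference of 2. The 246 genes higher by at least 2 lie above the upper dashed line, Map1b and Ptn among them at the left edge, and Afp, Fgb and Apoa2 lie at the lower right.

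Map1b and Ptn had the largest higher levels in the Afp-low cells. Map1b, a microtubule-associated protein gene known from neurons (chromosome 13, 99421446 to 99516540), had a lowest, median and highest level of 0, 11.6 and 13.7 in the Afp-low cells, where 21 of 25 had it, and 0, 0 and 8.18 in the hepatoblasts, where 1 of 46 did. Its means were 10.11 ± 4.37 in the Afp-low cells and 0.21 ± 1.21 in the hepatoblasts, a difference of 9.90. Most Afp-low cells were thus above every hepatoblast, and the few without Map1b were level with them. Map1b was not particular to the Afp-low cells: in the 6 Actc1 cells it ran from 12.2 to 14.04. Ptn ran from 0 to 13.1 in those 6 cells.

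Ptn, which encodes the secreted growth factor pleiotrophin (chromosome 6, 36714929 to 36810220), was detected in 21 of 25 Afp-low cells and 0 of 46 hepatoblasts. Its level ran from 0 through a median of 10.8 to 12.3 in the Afp-low cells and reached 0.782 at most in the hepatoblasts, a difference of means of 8.90. The 4 Afp-low cells without it were the 3 endothelial cells and the leukocyte, so all 21 mesenchymal cells had Ptn. Mest, an imprinted gene of embryonic mesoderm (chromosome 6, 30723547 to 30748465), averaged 8.63 ± 4.13 in the Afp-low cells and 0.41 ± 1.73 in the hepatoblasts. Lgals1, the gene of the carbohydrate-binding protein galectin-1 (chromosome 15, 78926725 to 78930465), averaged 9.23 ± 2.23 in the Afp-low cells and 0.91 ± 2.32 in the hepatoblasts, and was found in 24 of 25 Afp-low cells and 6 of 46 hepatoblasts.

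Among matrix genes, Fstl1, a secreted glycoprotein gene, averaged 7.96 ± 4.16 in the Afp-low cells and 0.16 ± 0.76 in the hepatoblasts, Mfap2, of the microfibrils, 7.33 ± 4.73 and 0.27 ± 1.34, and Sparc, a collagen-binding protein gene, 6.83 ± 3.83 and 0.45 ± 1.75. Nr2f2, an orphan nuclear receptor gene of mesenchyme and veins, was found in 24 of 25 Afp-low cells and 15 of 46 hepatoblasts, with means of 8.23 ± 2.38 and 1.88 ± 2.69. The other genes among the 15 largest were Maged2, Tmsb4x, which binds free actin, Vim, Itm2a, Phactr2, Tuba1a, a tubulin gene with near-identical copies that counting could split, and Gpx3, a secreted glutathione peroxidase gene. Their differences ran from 6.46 for Gpx3 to 7.58 for Maged2. In the 6 Actc1 cells Gpx3 ran from 9.96 to 13.05 and Maged2 from 11.7 to 13.9. Across the 15 genes the number of Afp-low cells that had the gene ran from 17 for Gpx3 to 24 for Lgals1 and Nr2f2.

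The genes with the largest lower level encode secreted proteins of the liver. Fgb, a fibrinogen chain gene (chromosome 3, 83040141 to 83049863), had no read in any of the 25 Afp-low cells and a lowest, median and highest level of 11.5, 13.3 and 15.01 in the hepatoblasts. Apoa2, an apolipoprotein gene (chromosome 1, 171225054 to 171226379), had a median of 0 and a highest level of 7.57 in the Afp-low cells, against 12.3, 13.4 and 15.2 in the hepatoblasts. Rbp4, the serum carrier of retinol (chromosome 19, 38116629 to 38125281), was found in 1 of 25 Afp-low cells, at 8.59, and in 46 of 46 hepatoblasts at a mean of 13.37 ± 0.56. In these 3 genes the groups did not overlap.

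Alb, the albumin gene, was less uniform in the hepatoblasts: it was found in 0 of 25 Afp-low cells and 42 of 46 hepatoblasts, at a mean of 9.41 ± 3.31 there, so 4 hepatoblasts overlapped the Afp-low cells. Of the 18 compared hepatoblast markers 17 were lower by at least 2 and 0 higher, beside 16.9% and 2.89% over all genes, and their median difference was -10.14; Afp is among them and chose the groups. The exception was Apob, the structural protein gene of lipoproteins, at 0 in all Afp-low cells and found in 6 of 46 hepatoblasts. Dlk1, an imprinted surface protein gene of hepatoblasts, was found in 12 of 25 Afp-low cells and 46 of 46 hepatoblasts, with means of 3.20 and 8.88. The Afp-low cell in well D7 was the only one with 3 hepatoblast markers, which were Apoa2 at 7.57, Trf at 5.87 and Dlk1 at 2.64. Serpina1b belongs to a family of near-identical copies whose reads may be split between them.

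Liver bud transcription factors were lower in 8 and higher in 0 of 14 compared members, with a median of -2.33. Over all genes 16.9% were lower and 2.89% higher, which also stands beside the epithelial genes below. Beside Prox1, Hnf4a, a nuclear receptor of hepatocytes, was found in 0 of 25 Afp-low cells and 26 of 46 hepatoblasts, Onecut2 in 0 and 26, Tbx3 in 0 and 24, Nr5a2 in 0 and 19, and Hhex, needed for growth of the bud, in 3 and 29. Epithelial genes were lower in 3 and higher in 0 of 6, with a median of -2.90: the keratin gene Krt18 was found in 1 Afp-low cell and 40 hepatoblasts, its partner Krt8 in 0 and 34, and the protease inhibitor gene Spint2 in 4 and 31. Epcam and Cdh1, the defining adhesion genes of epithelium, were found in 6 and 7 of 46 hepatoblasts and 0 Afp-low cells, so few hepatoblasts had them either.

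General mesenchyme genes were higher in 7 and lower in 0 of 9 compared members, beside 2.89% higher and 16.9% lower over all genes, with a median of 3.62. Stellate genes were higher in 5 and lower in 2 of 11, among the lower ones Reln (-6.96), with a median of 1.41. Septum transversum genes were higher in 2 of 11 (Hlx by 2.89 and by 2.37 Lhx2, which is also on the stellate list) and lower in 0, with a median of 1.30, and mesothelial genes in 0 of 5, with a median of 1.18. Members were compared only where enough cells of a group had them, so the medians do not cover all genes on the lists.

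Collagen and matrix genes were higher in 9 and lower in 1 of 25, with a median of 1.49. Over all genes 2.89% were higher and 16.9% lower, which also stands beside the adhesion and transition genes below. Col1a1, Col1a2, Col3a1, Vim and Twist1 are on the general mesenchyme list too, so these counts are not separate from that one. After Sparc the largest were Col1a2 (6.07), Col3a1 (5.84), Col1a1 (4.64), Col5a2, of type V collagen (3.73), and Vcan, the proteoglycan versican (2.83). The lower one was Fn1, the fibronectin gene, with means of 6.58 in the Afp-low cells and 8.80 in the hepatoblasts; it is named after its value was seen. Adhesion and transition genes were higher in 5 and lower in 0 of 12: Vim (7.40), Zeb2, a zinc finger repressor of epithelial genes (4.94), the neural adhesion gene Ncam1 (3.37), Cdh11, a cadherin of mesenchyme (2.74), and Twist1 (2.13).

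Of 12 growth factor ligands compared, 4 were higher, beside 2.89% over all genes, with differences of 8.90 for Ptn, 4.26 for Tgfb2, 3.42 for Igf1 and 2.10 for Fgf10, and 1 was lower, beside 16.9%, the stem cell factor gene Kitl, by -2.86. The last 3 of the higher ones were detected in 0 hepatoblasts and in 12, 9 and 5 of the Afp-low cells. Mdk, the midkine gene related to Ptn, was widespread in both groups, with means of 9.86 in the Afp-low cells and 10.80 in the hepatoblasts. Bmp4, a signal from the septum transversum to the liver bud, was detected in 1 of 25 Afp-low cells and 0 hepatoblasts. The ligands' median was 0.05.

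Of 13 imprinted growth genes 4 were higher, beside 2.89% over all genes, and 3 were lower, a share near the 16.9% over all genes. Their median was -0.30, and 0.25 after thinning. Mest (8.22), the zinc finger gene Plagl1 (5.91), Ndn, or necdin (3.25), and Peg3 (2.47) were higher. Dlk1 (-5.68) and Meg3 (-4.77), neighbours in 1 imprinted cluster, were lower, as was H19 (-2.29), named after its value was seen. Ednrb, an endothelin receptor gene known from neural crest and endothelium, was the only compared member of the neural crest list, found in 14 of 25 Afp-low cells, 10 of them mesenchymal, and in 0 of 46 hepatoblasts, a difference of 5.37. Sox10, which defines neural crest derivatives, was detected in 0 Afp-low cells and 0 hepatoblasts.

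Many cell cycle genes were lower in the Afp-low cells. S phase genes were lower in 8 and higher in 0 of 14, with a median of -2.23, and G2 and M phase genes in 9 and 0 of 14, with a median of -2.67, beside -0.65, 16.9% lower and 2.89% higher over all genes. Ccne1, a cyclin of the start of S phase, was found in 6 of 25 Afp-low cells and 37 of 46 hepatoblasts, Rrm2, a subunit of ribonucleotide reductase, in 14 and 43, Top2a, a topoisomerase of dividing cells, in 11 and 38, and the survivin gene Birc5 in 13 and 42. At least 3 genes of G2 and M phase were found in 13 of 25 Afp-low cells (52%, 31.3 to 72.2%) and 44 of 46 hepatoblasts (95.7%, 85.2 to 99.5%). After thinning, the medians were -1.91 for S phase and -2.27 for G2 and M phase, beside -0.51 over all genes.

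Beside the 16.9% lower and 2.89% higher over all genes, cholesterol synthesis genes were lower in 6 and higher in 0 of 13, with a median of -1.99, the largest being that of Fdft1, of squalene synthesis (-3.63). Glycolysis genes were lower in 7 and higher in 0 of 12, with a median of -2.07. The hexokinase gene Hk2 differed by -3.53 and Ldha, of lactate production, by -2.27, while Pkm, the pyruvate kinase gene, was found in 25 of 25 Afp-low cells and 46 of 46 hepatoblasts with means of 11.05 and 10.71. Of 8 compared retinoid genes 2 were lower and 0 higher, with Rbp4 among the lower ones, a share near that over all genes. Hox genes were higher in 0 and lower in 0 of 3, though Hoxb2, Hoxb5 and Hoxc4 were found in 7, 4 and 3 Afp-low cells and in 0 hepatoblasts. Of 4 immediate early and heat shock genes compared, 1 was lower, the chaperone gene Hsph1 (-2.90), and 0 were higher.

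The 6 Actc1 cells had Afp at 3.69 or below. Against them, 861 of 7941 compared genes were higher in the Afp-low cells (10.8%) and 610 lower (7.68%), with a median of 0.21 over all genes. Beside Actc1, which chose both groups, the largest lower levels were those of muscle genes: Myl7 averaged 2.35 ± 4.01 in the Afp-low cells and 11.41 ± 2.02 in the Actc1 cells, the smooth muscle actin gene Acta2 2.07 ± 4.23 and 11.08 ± 5.45, Tnnt2 1.19 ± 2.93 and 10.13 ± 4.97, and Csrp3, a protein gene of the sarcomere, 0 and 8.76 ± 4.66. Of 10 compared cardiac genes 9 were lower and 0 higher; Actc1 is among the 9 and chose the groups.

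Cardiac genes were present at a lower level in some Afp-low cells all the same. At least 3 cardiac markers were detected in 5 of 25 Afp-low cells (20%, 6.83 to 40.7%), 6 of 6 Actc1 cells and 0 of 46 hepatoblasts. Actc1 is on this list and chose the 6 cells, and the Actc1 cell in well F7 had exactly 3 of the markers, Actc1 included. In the Afp-low cells they were mostly Tnni1, found in 12 cells, Myl7 in 7, Myl4 in 6 and Tnnt2 in 4, while Myh6, Myh7, Myl2, Ttn and Nkx2-5 were detected in none. Tbx18 was found in 5 of 25 Afp-low cells and 5 of 6 Actc1 cells, and Tcf21, also known from the heart's outer layer, in 4 of 25 Afp-low cells and 4 of 6 Actc1 cells. Stellate genes were higher in 5 and lower in 0 of 11 against the Actc1 cells, beside 10.8% higher and 7.68% lower over all genes. General mesenchyme genes were higher in 3 and lower in 0 of 11. Septum transversum genes were higher in 3 and lower in 3 of 12, and mesothelial genes in 0 and 2 of 6. Of the 6 Actc1 cells, 4 carried the general mesenchyme list, 4 the septum transversum, 2 the mesothelial and 1 the stellate list. Rgs5, Colec11 and Lhx2 were found in 9, 9 and 7 of 25 Afp-low cells and 0 of 6 Actc1 cells. A count of 0 of 6 cells allows a share of up to 50%.

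The largest higher levels against the Actc1 cells were those of Dnajc9, a histone chaperone gene found in 18 of 25 Afp-low cells and 0 of 6 Actc1 cells, the coat protein gene Copa (15 and 0), Ccnd3, a cyclin of the first gap phase (16 and 0), Snrnp40, of the splicing machinery (15 and 0), and Selenof (22 and 2). S phase genes were higher in 7 and lower in 0 of 13, and G2 and M phase genes in 8 and 0 of 14. Over all genes 10.8% were higher and 7.68% lower against the Actc1 cells. With the hepatoblasts this places the cell cycle genes of the Afp-low cells between the other 2 groups: the median number of S phase genes detected per cell was 6 in the Afp-low cells, 1.5 in the Actc1 cells and 10 in the hepatoblasts. The Actc1 cells also had fewer genes detected, with a median of 2007.5 against 2354 in the Afp-low cells, and the part of this in the difference was not tested.

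Another mesenchyme in the series consists of 58 E14.5 pancreas cells with Col1a1 at 5 or more. These came from another organ, day and plate, which cannot be told apart, so values are set side by side. General mesenchyme markers were carried by 19 of 25 Afp-low cells and 58 of 58 pancreas cells, where Col1a1 is a marker and chose the cells. Col6a1, of type VI collagen, was found in 2 of 25 Afp-low cells and 48 of 58 pancreas cells, Dcn, the proteoglycan decorin, in 2 and 40, and Prrx1, a homeobox gene of limb and trunk mesenchyme, in 0 and 39. The reverse held for Colec11 (9 Afp-low cells and 0 pancreas cells), Lhx2 (7 and 0), Gata4 (6 and 0), Tbx18 (5 and 0) and Foxf1 (4 and 0). Members of the septum transversum and stellate lists went both ways. Hand2 (4 Afp-low cells and 35 pancreas cells), Tcf21 (4 and 19) and Isl1 (2 and 16) were more widespread in the pancreas cells. So were Des (3 and 32), Pdgfrb (2 and 36) and Hgf (3 and 18). Septum transversum genes were carried by 13 of 25 Afp-low cells and 8 of 58 pancreas cells, and mesothelial genes by 3 and 0. The stellate list was carried by 15 of 25 Afp-low cells (60%) and 46 of 58 pancreas cells (79.3%), and Rgs5 was found in 9 of 25 Afp-low cells and 35 of 58 pancreas cells. Prox1 was detected in 14 of 25 Afp-low cells and 10 of 58 pancreas cells (17.2%, 8.59 to 29.4%).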

How the data were processed

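Per the labels, Smart-seq2 libraries of single cells were sequenced. The submitters' processing notes name Cuffdiff 2.2.1, Cufflinks, STAR 2.5.3 and build GRCm38; the sources used here do not give the counter, the annotation or the size factors. What the authors deposited was a table of log2 values for 20474 genes and 346 cells, with 76.7% of entries empty. Undoing the log2 and multiplying by 1 factor per cell gave whole reads (within 0.01) for 99.9988% of values, so they were read as log2(reads / size factor + 1), with empty entries as 0.

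Python 3.11.15, numpy 2.4.6, pandas 2.3.3 and scipy 1.17.1 gave means, SDs, shares and differences of mean log2 values. A difference of means of log2(value + 1) understates the change of low genes. With 1 sample a group no test between groups was run, and p-values would rest on cells. PCR reads are not molecules, so intervals and limits (3 cells for a share of 0) cover counting error only. Coordinates are from GENCODE M21, where 20419 names matched; 23 names had become dates. Of 361 listed genes 338 were in the table. Promoters are from RefSeq. No doublet caller was run.

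Named genes are the 15 largest differences in each direction (5 against the Actc1 cells) in genes found in at least 50% of the cells of the higher group, leaving out Y-linked, Xist, predicted, ribosomal protein and mitochondrial genes, the cell type markers, and up to 6 members of each of 29 lists. The members and lists were chosen with earlier results of these data known. Steps were tested on simulated data. Alternatives changed the pseudocount, scaling, depth, filters, thresholds and cells. Some listed genes are not reported here.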

Additional observations from a re-analysis of the deposited data

Results flagged for a closer look

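Among 11 genes looked at in the 6 Actc1 cells, 3 had a cell far from the others (Dixon's test over cells of 1 plate). Chance flags about 1 in 20 groups in this test where values follow a normal distribution, which levels with zeros need not do. Dnajc9, Copa, Ccnd3 and Snrnp40 are among the 11 and had no read in any of the 6 cells, so they could not be flagged. Actc1 is also among the 11 and chose the cells. Prox1 was lowest at 0.676, with the next cell at 5.55, and that cell (well F4) had Actc1 at 11.5 and Myl7 at 13.3. Acta2 was lowest at 0, with the next cell at 12.9, and Tnnt2 was lowest at 0, with the next at 11.6; both are the cell in well F7, which had Actc1 at 10.2 and Myl7 at 9.14.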

How the results depend on the processing

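No paired analysis was possible because the groups are cells of 1 plate and share no replicate numbers. All 31 genes named for their difference from the hepatoblasts, Prox1 included, kept their direction and a difference of at least 2 under each alternative that gave a value. No result changed sign among those past a difference of 2, and of the values on Prox1, all genes, list medians and cell counts 482 stayed within their limits while 30 moved. Of the values on single genes and on counts of list members 852 stayed and 112 moved. Values that an alternative could not change are counted among those that stayed. Limits of 3 for Afp and Actc1 left the same 25 Afp-low cells and 46 hepatoblasts, so every value was unchanged. The pseudocount does not enter the shares of cells, and the size of difference counted does not enter the medians. The counts thus overstate how far the results withstood the alternatives.

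With a pseudocount of 0.1 there were 467 genes higher and 2405 lower, and medians of -13.16 for hepatoblast genes, -3.55 for liver bud transcription factors and -4.08 for epithelial genes. With a pseudocount of 10 these were 101, 532, -7.02, -1.24 and -1.74. With a difference of 1 in place of 2, 857 genes were higher and 3259 lower. The hepatoblast median was -9.41 when scaled to total reads, -9.39 after thinning and -9.39 without a filter on low genes, which also gave medians of 0 over all genes, 0 for the neural crest list and -1.10 for epithelial genes. The Afp-low cells with hepatoblast markers numbered 0 after thinning, at a limit of 20 normalized reads, and with 5 markers required, and 5 with detection at any read.

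With 2 markers required, 20 Afp-low cells carried the septum transversum list, 7 the mesothelial and 8 the cardiac list, and 39 hepatoblasts the stellate list. With 5 required, the Afp-low cells numbered 3 for septum transversum, 8 for stellate, 12 for general mesenchyme, 1 for mesothelium and 2 for cardiac muscle, and 0 hepatoblasts carried the stellate list. Prox1 was in 100% of cells when cells without it were left out, by construction. Without the 4 endothelial and leukocyte cells, an alternative added after seeing the data, the lymphatic median was 3.50, 281 genes were higher and 1583 lower, and the median over all genes was -0.74. Lower genes numbered 1090 when scaled to total reads, 1251 with median-of-ratios scaling and 1087 after thinning; higher genes numbered 236, 267 and 238. The cause of these shifts was not tested. At 25 cells a share of 0 allows up to 12%.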
